A study of Saccharomyces cerevisiae with 8 samples.

Results

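The genes described here code for the cell wall integrity (CWI) kinase cascade of *Saccharomyces cerevisiae* and its direct regulators. They were taken by the systematic names of their open reading frames (ORFs), 10 of the 6212 ORFs in the table, and comprise the kinases *PKC1* (YBL105C), *BCK1* (YJL095W), *MKK1* (YOR231W), *MKK2* (YPL140C), *SLT2* (YHR030C) and *KDX1* (YKL161C), the transcription factor *RLM1* (YPL089C), and the phosphatases *SDP1* (YIL113W), *MSG5* (YNL053W) and *PTP2* (YOR208W). Of these genes, 9 had a value on at least 1 array and *BCK1* had none.

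The CWI pathway is the MAP kinase route by which yeast cells maintain and repair the cell wall during growth and under stress. Sensors in the plasma membrane activate the GTPase Rho1, Rho1 activates protein kinase C (Pkc1), and Pkc1 acts on a cascade in which Bck1 phosphorylates the redundant kinases Mkk1 and Mkk2, and these phosphorylate the MAP kinase Slt2. Active Slt2 phosphorylates Rlm1, which drives transcription of many genes for cell wall proteins, while dual-specificity and tyrosine phosphatases return Slt2 to its inactive state. Ptc1, a serine/threonine phosphatase of type 2C, is known as a negative regulator of this pathway and of other MAP kinase pathways, and Ptc6 is a member of the same family.

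Transcript levels were compared on 2-colour arrays of double-stranded ORF probes, on which the labelled cDNAs of a mutant and of wild type (wt) cells competed for the same spots. A set of 4 arrays held *ptc1 ptc6* cells (*ptc1::NAT ptc6::kanMX4*) and another set of 4 held *ptc6* cells (*ptc6::kanMX4*), each against wt cells of strain BY4741, from which both mutants derive. All cells thus shared the auxotrophies of BY4741 for histidine, leucine, methionine and uracil, grew in the rich medium YPD at 28 °C, and were collected untreated in exponential phase. Each set comprised 2 biological replicates, hybridised on 2 arrays with the dyes exchanged. A *ptc1* single mutant was not analysed here, so the share of each deletion in a value of the double mutant cannot be told apart, nor can genotype and array set, since the sets were hybridised separately. Whether the wt cultures were shared or separate, and whether a mutant was represented by more than 1 clone, was not stated in the sources used here.

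All values below are log2 ratios of mutant over wt, so that 0 means equal transcript levels and 1 means 2-fold more in the mutant. They measure transcripts, not phosphorylation or activity of the kinases. The 2 arrays of a dye swap were averaged into 1 replicate, and the resulting n = 2 per mutant was tested with limma in a fit of all ORFs, with an adjusted p of 0.05 as the threshold. Such p-values rest on the spread between these replicates, pooled over both mutants and drawn by limma towards the spread of all ORFs. An interval can thus be wider or narrower than the SD of a mutant alone would give.

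The *ptc1 ptc6* arrays held values for 4050 to 4710 ORFs and for 7 or 8 of the cascade genes, and the *ptc6* arrays for 4308 to 5537 ORFs and for 7 to 9 of them. The deleted genes were low where the labels say so. *PTC1* averaged −2.56 ± 0.18 in *ptc1 ptc6* cells and 0.22 ± 0.26 in *ptc6* cells, and *PTC6* averaged −3.94 ± 1.11 and −2.34 ± 0.11 in these mutants (SD, n = 2). Both mutants share 1 estimate of the spread, and even *PTC6* did not pass the limma threshold in *ptc6* cells (adjusted p = 0.407). With *ptc6* fitted alone it did (adjusted p = 1.33e-08 by limma), while none of the cascade genes did. The replicates of *ptc1 ptc6* correlated across ORFs with r = 0.76 and those of *ptc6* with r = 0.12, so that the *ptc6* values below rest on replicates that resemble each other little.

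In *ptc1 ptc6* cells 3 genes at the end of the cascade passed the test, and none of those measured at its beginning did. The transcripts of the MAP kinase *SLT2*, its paralogue *KDX1* and the transcription factor *RLM1* rose, by 2.73-fold, 10.1-fold and 2.01-fold over wt. The phosphatase genes *PTP2* and *SDP1* had values of 2.11-fold and 2.15-fold over wt in the 1 replicate in which each was measured. They were outside the test, which required both replicates. *PKC1*, *MKK1* and *MKK2* did not pass the test, nor did the phosphatase gene *MSG5* at the end of the cascade. *BCK1* had no value. In *ptc6* cells none of the 8 genes tested passed it. Of the 7 genes tested in *ptc1 ptc6* cells, 3 were called, all of them higher, where 5.64% of all 4596 ORFs tested were called higher and 8.49% lower. The cascade genes were chosen with earlier results of these data known, so these shares are a description only.

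**Figure D1:**
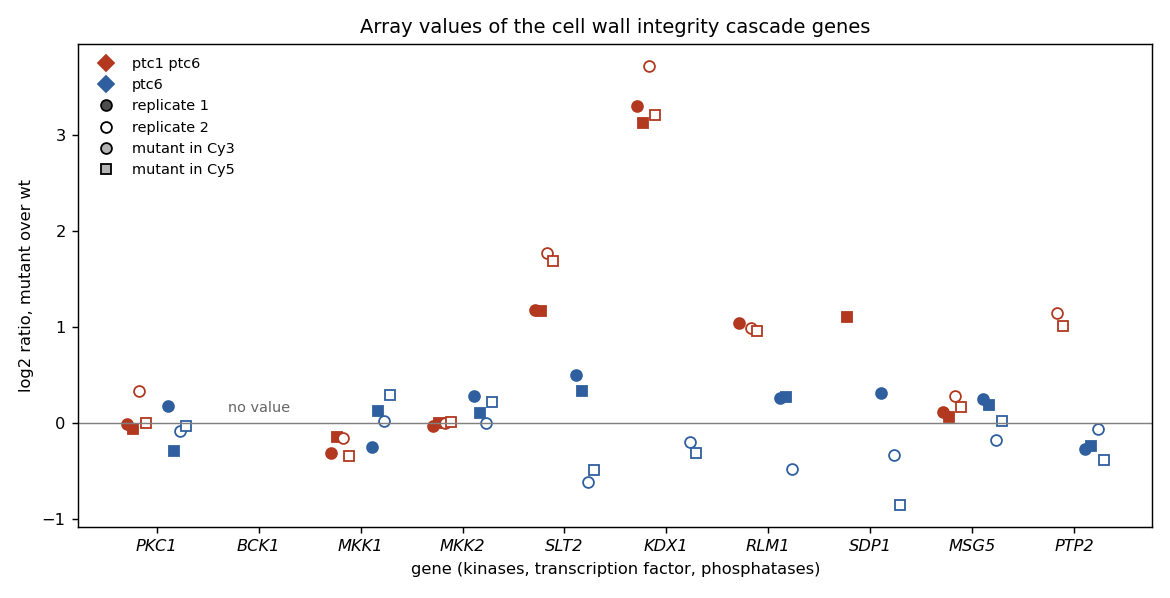
Log2 ratio over wt (y axis) of each cascade gene (x axis) on every array with a value, with *ptc1 ptc6* in red on the left of each gene and *ptc6* in blue on the right. Filled symbols are replicate 1, open symbols replicate 2, circles arrays with the mutant in Cy3 and squares arrays with the mutant in Cy5. The red points of *SLT2*, *KDX1*, *RLM1*, *SDP1* and *PTP2* all lie at 0.96 or above, and every other point lies at 0.50 or below.

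*PKC1* codes for the protein kinase C that links Rho1 to the cascade. Its log2 ratios were −0.011, −0.058, 0.34 and 0.006 on the *ptc1 ptc6* arrays, against 0.177, −0.291, −0.083 and −0.033 on the *ptc6* arrays. The groups overlapped, and values of both lay on either side of 0. The fitted mean was 0.07 (95% interval −0.19 to 0.33, adjusted p = 0.692 by limma) in *ptc1 ptc6* cells and −0.06 (adjusted p = 0.909) in *ptc6* cells.

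*MKK1* and *MKK2* code for the redundant MAP kinase kinases that phosphorylate Slt2. *MKK1* had log2 ratios of −0.312, −0.142, −0.151 and −0.339 on the *ptc1 ptc6* arrays, against −0.242, 0.131, 0.026 and 0.295 on the *ptc6* arrays. It lay below 0 on every *ptc1 ptc6* array, and 1 *ptc6* array fell into the same range. The mean of −0.24 in *ptc1 ptc6* cells (95% interval −0.50 to 0.026) did not pass the test (adjusted p = 0.182 by limma).

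*MKK2* was closer to wt than any other cascade gene in *ptc1 ptc6* cells, with log2 ratios of −0.03, −0.001, −0.001 and 0.016 on the 4 arrays, against 0.284, 0.107, 0.007 and 0.223 on the *ptc6* arrays. All *ptc6* values lay above 0 and 1 of them fell below the highest *ptc1 ptc6* value. The interval for *ptc1 ptc6* cells, −0.25 to 0.24 on the log2 scale, leaves room for a change of that size in either direction. The mean of 0.16 in *ptc6* cells did not pass the test (adjusted p = 0.695 by limma).

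*SLT2* codes for the MAP kinase of the pathway. Its log2 ratios on the *ptc1 ptc6* arrays were 1.174 and 1.169 in replicate 1 and 1.768 and 1.686 in replicate 2, against 0.497 and 0.336 in replicate 1 and −0.613 and −0.482 in replicate 2 on the *ptc6* arrays. Every *ptc1 ptc6* array lay above every *ptc6* array. The arrays of a dye swap were close to each other in both mutants, and the spread lay between the biological replicates. The mean in *ptc1 ptc6* cells was 1.45 ± 0.39 (SD, n = 2), with a standard error of 0.24 and a 95% interval of 0.87 to 2.03 (adjusted p = 0.027 by limma), rank 30 from the top among the 4596 ORFs tested. In *ptc6* cells the replicates were on opposite sides of wt, at 0.42 and −0.55, and the mean of −0.07 had an interval of −0.65 to 0.52.

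*KDX1*, also named *MLP1*, codes for a protein kinase related to Slt2 and is known as a transcriptional target of Rlm1. Its log2 ratios on the *ptc1 ptc6* arrays were 3.3 and 3.126 in replicate 1 and 3.714 and 3.208 in replicate 2, against −0.193 and −0.306 in replicate 2 of *ptc6*, with no value in replicate 1 of *ptc6*. All *ptc1 ptc6* values were above 3 and both *ptc6* values were below 0. With a mean of 3.34 ± 0.18 (SD, n = 2, 95% interval 3.03 to 3.64, adjusted p = 0.000931 by limma), *KDX1* ranked at place 3 of the 4596 ORFs. *SLT2* and *KDX1* are related in sequence, and cross-hybridisation between their probes was not tested.

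*RLM1* codes for the MADS-box transcription factor that Slt2 phosphorylates. Its log2 ratios on the *ptc1 ptc6* arrays were 1.038 in replicate 1 and 0.985 and 0.96 in replicate 2, against 0.26 and 0.272 in replicate 1 and −0.48 in replicate 2 on the *ptc6* arrays. The 3 *ptc1 ptc6* values were close together and above every *ptc6* value. The mean was 1.01 ± 0.046 in *ptc1 ptc6* cells (SD, n = 2, 95% interval 0.57 to 1.44, adjusted p = 0.027 by limma) and −0.11 ± 0.53 in *ptc6* cells (SD, n = 2, 95% interval −0.54 to 0.32). The neighbouring ORFs on the chromosome also passed the test in *ptc1 ptc6* cells, in opposite directions. YPL088W rose by 1.20 (adjusted p = 0.0399 by limma), and *RPS6A*, which codes for a ribosomal protein, fell by 0.75 (adjusted p = 0.027 by limma). Probes of double-stranded DNA do not tell the strands apart, and the part of a neighbouring transcript in the *RLM1* value was not tested.

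*PTP2* codes for a tyrosine phosphatase that acts on Slt2 and on Hog1, the MAP kinase of the osmotic stress pathway. Its log2 ratios were 1.141 and 1.01 in replicate 2 of *ptc1 ptc6*, with no value in replicate 1, against −0.264, −0.241, −0.056 and −0.381 on the *ptc6* arrays. Both *ptc1 ptc6* values were above 1 and all *ptc6* values were below 0. The *ptc1 ptc6* mean of 1.08 came from a single replicate, so *PTP2* did not meet the requirement of both replicates. In a fit without replicate 1 of *ptc1 ptc6*, where the lone replicate is assumed to vary like those of *ptc6*, it passed (adjusted p = 0.00308 by limma). The mean of −0.24 ± 0.024 in *ptc6* cells (SD, n = 2, 95% interval −0.51 to 0.039) did not pass the test (adjusted p = 0.615 by limma).

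*SDP1* and *MSG5* code for dual-specificity phosphatases that act on Slt2. *SDP1* had a single value in *ptc1 ptc6* cells, 1.105 in replicate 1, against 0.319 in replicate 1 and −0.335 and −0.848 in replicate 2 of *ptc6* cells. The *ptc1 ptc6* value was above all *ptc6* values, but it came from 1 array, and *SDP1* was outside the test of *ptc1 ptc6* cells for the same reason as *PTP2*. *MSG5* was measured on all arrays, with log2 ratios of 0.117, 0.066, 0.283 and 0.165 for *ptc1 ptc6*, against 0.253, 0.185, −0.176 and 0.027 for *ptc6*. All *MSG5* values of *ptc1 ptc6* cells were above 0 and overlapped those of *ptc6* cells. Its mean of 0.16 ± 0.094 in *ptc1 ptc6* cells (SD, n = 2, 95% interval −0.13 to 0.44) did not pass the test (adjusted p = 0.395 by limma).

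By the 2-fold rule used in the study's methods, which takes the mean over the arrays with a value and gives no p-value, 3 of the 8 cascade genes with at least 2 arrays were past 2-fold in *ptc1 ptc6* cells, namely *SLT2*, *KDX1* and *PTP2*, where 1.68% of 4754 ORFs were past 2-fold in that direction. *RLM1* stood just under the rule, with an array mean of 0.99. In *ptc6* cells 0 of 9 cascade genes were past 2-fold in either direction, against 0.0549% of 5461 ORFs, and the array mean farthest from 0 was −0.29 for *SDP1*. The limma test called 0 of 8 cascade genes in *ptc6* cells and 0% of 4824 ORFs. At an unadjusted p under 0.05 it gave 386 of these ORFs and none of the 8 cascade genes.

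**Figure D2:**
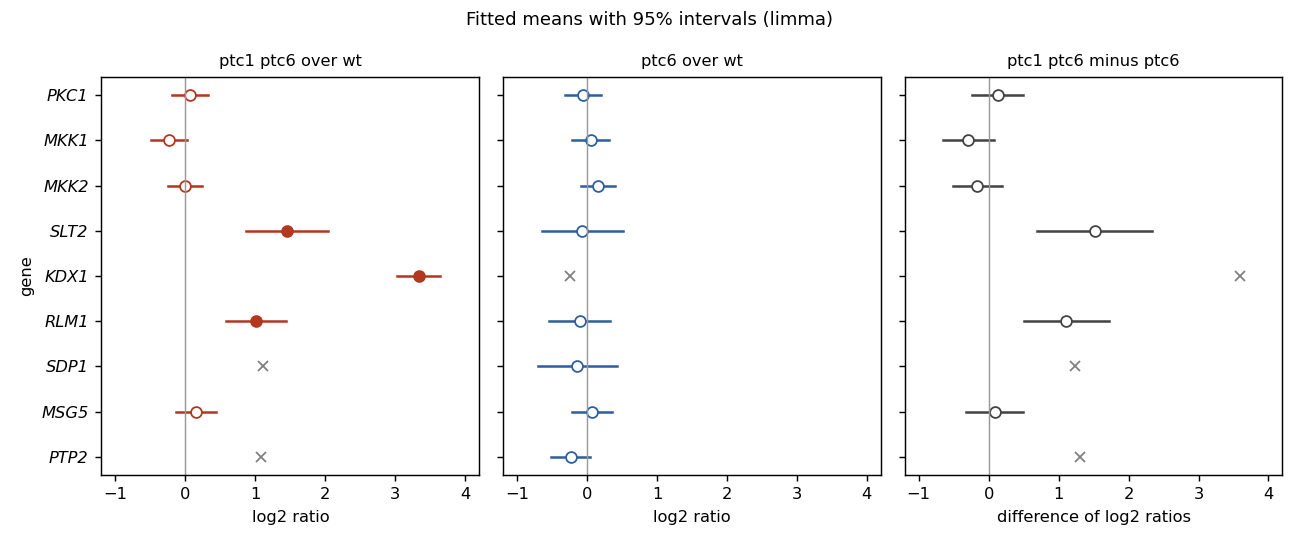
Mean log2 ratio over wt of each cascade gene in *ptc1 ptc6* and in *ptc6* cells, and the difference of *ptc1 ptc6* minus *ptc6* (x axes, log2), with bars for the 95% intervals of limma. Filled circles passed the threshold, open circles did not, and crosses lacked a replicate and were outside the test. Only *SLT2*, *KDX1* and *RLM1* in *ptc1 ptc6* cells are filled, and in the difference the intervals of *SLT2* and *RLM1* lie above 0 although neither passed after adjustment.

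The mutants were then compared directly. All arrays of *ptc1 ptc6* lay above all arrays of *ptc6* for 4 of the 8 cascade genes with at least 2 arrays in each mutant (*SLT2*, *KDX1*, *RLM1* and *PTP2*), where this held for 8.97% of 4725 ORFs. The other 4, *PKC1*, *MKK1*, *MKK2* and *MSG5*, overlapped. The difference was 1.51 for *SLT2* (standard error 0.34, 95% interval 0.69 to 2.34) and 1.11 for *RLM1* (standard error 0.25, 95% interval 0.50 to 1.72). Neither passed after adjustment over all ORFs (adjusted p = 0.0966 for each by limma), and 0 of the 6 cascade genes tested did, against 0.206% of 4361 ORFs. At an unadjusted p under 0.05 the test gave *SLT2* and *RLM1*, 2 of the 6, and 1060 of all ORFs. Whether they passed depended on the fit. Both passed with single arrays and a random block per replicate, with or without a dye term, and with either replicate block. For these blocks the replicate numbers were taken as names only, and the block with crossed numbers was added after the data were seen. The random-block fits treat dye-swapped arrays of the same RNA as nearly independent (correlation within replicates −0.09, and 0.13 with a dye term). Neither passed on Cy3 arrays alone or after median-centring. *SLT2* did not pass on Cy5 arrays alone or with values required on 4 of 4 arrays either. With a replicate left out, the difference ran between 1.03 and 2.00 for *SLT2* and between 0.74 and 1.485 for *RLM1*.

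*KDX1* differed by 3.59, *PTP2* by 1.31 and *SDP1* by 1.24 between the mutants, in the direction of *ptc1 ptc6*, and these genes were outside the test, which required both replicates of each mutant. In fits without the replicate that lacked a value, the adjusted p by limma was 0.0398 for *KDX1*, 0.00394 for *PTP2* and 0.0519 for *SDP1*, with the lone replicate assumed to vary like the other mutant. For the remaining genes the intervals of the difference included 0. They were −0.66 to 0.082 for *MKK1*, −0.50 to 0.19 for *MKK2*, −0.32 to 0.49 for *MSG5* and −0.24 to 0.49 for *PKC1*.

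The *ptc6* replicates lay on opposite sides of wt for *SLT2*, *RLM1* and *SDP1*. In replicate 1 of *ptc6*, *SLT2*, *RLM1* and *SDP1* stood at 0.42, 0.27 and 0.32, and in replicate 2 at −0.55, −0.48 and −0.59. Of the 8 cascade genes measured in both *ptc6* replicates, 5 had opposite signs. Across all 4824 ORFs 47.5% had opposite signs. Of the 7 cascade genes measured in both *ptc1 ptc6* replicates, 2 had opposite signs, against 23.9% of 4596 ORFs, and *SLT2* was higher in replicate 2 (1.73) than in replicate 1 (1.17). Across ORFs, replicate 1 of *ptc6* correlated with the *ptc1 ptc6* replicates with r = 0.26 and 0.27, and replicate 2 of *ptc6* with r = −0.30 and −0.41. Any wt cultures that the sets share would enter these correlations, so they are given as a description of the arrays.

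**Figure D3:**
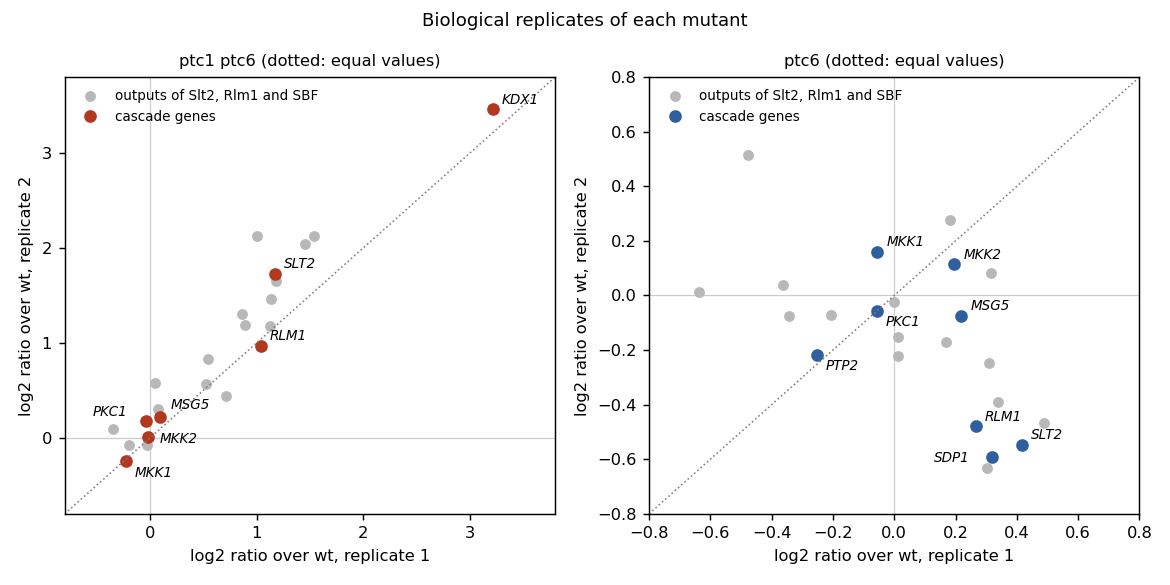
Mean log2 ratio over wt in biological replicate 1 (x axis) and replicate 2 (y axis) of *ptc1 ptc6* (left) and *ptc6* (right, on a narrower scale), with the cascade genes in colour and the known outputs of the pathway in grey. In *ptc1 ptc6* cells most points lie near or above the dotted line of equal values, and in *ptc6* cells *SLT2*, *RLM1* and *SDP1* lie at 0.27 to 0.42 in replicate 1 and at −0.59 to −0.48 in replicate 2.

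The remaining genes of the pathway were described through lists by role. These lists were chosen with earlier results of these data known, so their counts are a description only. The outputs are the transcription factor subunits *SWI4* and *SWI6* together with 14 genes known to respond to Slt2 and Rlm1, mostly genes for cell wall proteins. All 16 were tested in *ptc1 ptc6* cells, where 10 rose, none fell and 8 were past 2-fold upwards, against 5.64% of all ORFs called higher, 8.49% called lower and 1.68% past 2-fold upwards. The median of the list was 0.86, against −0.05 over all ORFs tested, and it was 0.79 in replicate 1 and 1.01 in replicate 2.

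The output gene with the highest ratio, *PRM5*, codes for a membrane protein and had 1.54 and 2.13 in the *ptc1 ptc6* replicates, against 0.49 and −0.47 in the *ptc6* replicates. The cell wall protein gene *PST1* had a mean of 1.75 (adjusted p = 0.0211 by limma) in *ptc1 ptc6* cells. *GSC2*, which codes for a subunit of the glucan synthase of the cell wall, had 1.42 (adjusted p = 0.0228), and *CRH1*, for a chitin transglycosylase that links chitin to glucan, had 1.30 (adjusted p = 0.00973). The wall protein genes *PIR3*, *SED1*, *NCW2* and *HSP150* had means between 1.04 and 1.57, and *BGL2* and *CIS3* rose less, by 0.69 and 0.54. In *ptc6* cells none of the 15 output genes tested passed, and their median was −0.02.

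6 output genes did not pass the test in *ptc1 ptc6* cells. *SWI4* and *SWI6*, which code for the factor SBF that Slt2 also phosphorylates, had means of −0.14 (adjusted p = 0.435 by limma) and −0.05 (adjusted p = 0.764). *PIR1* had 0.58 (adjusted p = 0.132), *CHS3* 0.31, *CWP1* 0.19 and *NFG1* −0.13. In the difference between the mutants all 15 output genes tested were above 0, as were 1698 of all 4361 ORFs tested. The median of these output genes was 1.04, against −0.09 over all ORFs, and 0 of them passed after adjustment. That count depended on the fit and reached 9 of the output genes with single arrays and a random block. In that fit 251 of all ORFs were called higher and 493 lower.

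Upstream of the cascade 17 genes were listed, for the sensors, Rho1 and its regulators, the kinases that activate Pkc1 and the adaptor Nbp2, which binds Ptc1. Of the 11 tested in *ptc1 ptc6* cells, 1 rose and 1 fell, a share near the 5.64% and 8.49% of all ORFs called in these directions, the median was 0.03 and none was past 2-fold. *PKH1*, which codes for a kinase that phosphorylates Pkc1, had 0.41 (standard error 0.10, adjusted p = 0.0487 by limma) with values of 0.10 to 0.62 over the arrays. *ZEO1*, whose product binds the sensor Mid2 and counteracts the pathway, had −0.54 (standard error 0.11, adjusted p = 0.034) with values of −0.84 to −0.20. Neither call held on Cy3 arrays alone or without either *ptc1 ptc6* replicate. The sensor gene *MID2* had −0.57 and did not pass (adjusted p = 0.0704). *RHO1* had 0.08 and *NBP2* 0.11, and neither passed the test (adjusted p = 0.619 and 0.560 by limma). In *ptc6* cells none of the 12 upstream genes tested passed.

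Genes of the other MAP kinase modules, for mating, filamentous growth, osmotic stress and sporulation, gave 0 calls among 9 tested in *ptc1 ptc6* cells and 0 among 11 in *ptc6* cells, with medians of 0.03 and −0.12, where 5.64% of all ORFs were called higher and 8.49% lower in *ptc1 ptc6* cells and 0% were called in *ptc6* cells. With a random block on single arrays, 1 of these genes was called higher and 1 lower in *ptc1 ptc6* cells. In that fit 511 of the 4596 ORFs tested were called higher and 838 lower. Their means in *ptc1 ptc6* cells ran between −0.45 for *FUS3*, the MAP kinase of the mating pathway (adjusted p = 0.0532 by limma), and 0.33 for *HOG1* (adjusted p = 0.0931).

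**Figure D4:**
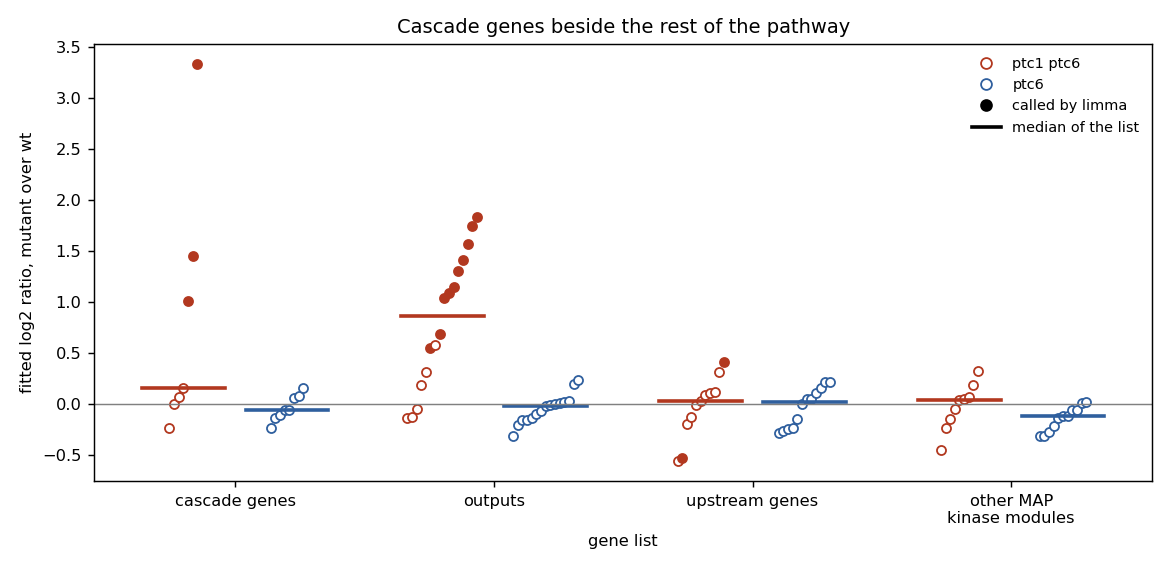
Fitted log2 ratio over wt (y axis) of every tested gene in the cascade and in the lists of outputs, upstream genes and other MAP kinase modules (x axis), in *ptc1 ptc6* (red, left) and *ptc6* (blue, right). Filled points passed the limma threshold and horizontal lines are medians. In *ptc1 ptc6* cells the outputs have a median of 0.86, against 0.03 for the upstream genes and 0.03 for the other modules, and no point of *ptc6* is filled.

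Array values nearest to those of the MAP kinase genes were sought among all ORFs with a value on each array on which the kinase gene had one, by the root mean square (RMS) difference of the log2 ratios. Of 3435 ORFs, the nearest to *SLT2* over 8 arrays were *GSC2* (RMS difference 0.176), *RTS3* (0.20) and *YPS3* (0.222). *GSC2* ran between 1.15 and 1.69 on the *ptc1 ptc6* arrays and between −0.26 and 0.42 on the *ptc6* arrays. All of these arrays entered the search, so the likeness of the profiles is a description only. Of 3690 ORFs, the nearest to *KDX1* over 6 arrays were the small heat shock protein genes *HSP12* (RMS difference 0.519) and *HSP26* (0.561), followed by *CRG1* (0.927). *HSP12* ran between 2.97 and 4.01 on the *ptc1 ptc6* arrays and between 0.03 and 0.28 on the *ptc6* arrays. *HSP26* ran between 3.86 and 4.03 on the *ptc1 ptc6* arrays and between −0.51 and 1.33 on the *ptc6* arrays. The *ptc6* arrays of replicate 1, where *KDX1* had no value, did not enter this search.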

How the data were processed

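Cells were compared with wt on 2-colour arrays, each mutant in 2 biological replicates with a dye swap. The deposited values are log2 ratios per ORF, which the authors obtained from GenePix spot intensities after leaving out spots of less than 120 µm in diameter or under 150 units, and pre-processed with GEPAS. The normalization within arrays was not given in the sources used here. Base 2 was assumed for the logarithm, given the 2-fold rule of the methods, and the deleted ORFs gave the direction. No signal of single channels was used, so no spot could be judged against background. Array medians were at most 0.101 from 0. The arrays' number, 8, limits the precision.

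After averaging dye-swapped arrays, limma 3.58.1 (R 4.3.3) was run on the 4 resulting means with functions lmFit and eBayes, 1 coefficient per mutant and 1 spread for both. Testing required both replicates and 2 or more of the 4 arrays. Tests were two-sided, with Benjamini-Hochberg adjustment over all ORFs tested. The fit was tested on simulated data with the same spread for all ORFs and both mutants. That test does not cover ORFs whose spread differs between the mutants. Symbols and chromosomal neighbours came from the RefSeq gene table of assembly R64, which matched 5662 of the 6212 names. The members, the 3 lists (46 genes) and the rule for named genes (all members, list genes past a threshold or on which a sentence turns, and the 3 ORFs nearest to *SLT2* and *KDX1*) were chosen with earlier results of these data known.

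Alternatives were single arrays with a random block per replicate, with or without a dye term, each mutant alone, 1 dye orientation, median-centring, values required on 4 of 4 arrays, the replicate number as a block, and leaving out each replicate. A block with crossed numbers was added after the data were seen.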

Additional observations from a re-analysis of the deposited data

Results flagged for a closer look

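*PKC1* in *ptc1 ptc6* cells had a value of 0.34 in experiment 3, far above the other 3 arrays, which lay between −0.058 and 0.006. This array stood apart by Dixon's criterion for 4 values, among 12 groups of 4 arrays searched. For independent values chance marks about 1 in 20 such groups. Arrays of a dye swap share their RNA, so that rate need not hold here.

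*KDX1* differed by 3.59 on the log2 scale between *ptc1 ptc6* and *ptc6* cells. Every *ptc1 ptc6* array was above 0 and both *ptc6* arrays with a value were below 0, and the difference was not tested in the fit of all replicates, which required a value in *ptc6* replicate 1. Without that replicate the adjusted p was 0.0398 by limma. *PTP2* differed by 1.31, with both *ptc1 ptc6* arrays above 0 and all 4 *ptc6* arrays below 0, and this difference was not tested there either, since *ptc1 ptc6* replicate 1 had no value. Without that replicate the adjusted p was 0.00394 by limma.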

How the results depend on the processing

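Of 223 alternative values of cascade genes that met the requirement of both replicates, 199 kept their direction and side of the threshold, 14 changed sign and 10 moved past the threshold. A further 61 belong to genes outside the test. For *ptc1 ptc6* cells, fitting this mutant alone and leaving out either *ptc6* replicate gave the same fit. For *ptc6* cells the same held with the mutants exchanged. The counts of alternatives here and below thus hold repeats of 1 fit. In *ptc1 ptc6* cells *SLT2*, *KDX1* and *RLM1* were higher and past the threshold under every alternative that could test them (11, 9 and 9), with adjusted p by limma of 0.000176 to 0.0294, 1.94e-08 to 0.00857 and 0.000859 to 0.0307. Without either *ptc1 ptc6* replicate *KDX1*, which lacked a value in *ptc6* replicate 1, could not be tested, and the cascade genes called changed. Without *ptc1 ptc6* replicate 1 they were *SLT2*, *RLM1* and *PTP2* (adjusted p = 0.00308), and without replicate 2 *SLT2*, *RLM1* and *SDP1* (adjusted p = 0.0216). A lone replicate is there assumed to vary like the other mutant.

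The difference between the mutants depended on the fit. With the replicate number as a replicate block, 2 cascade genes (*SLT2* and *RLM1*) and 268 ORFs were called, against 0 and 9. The differences between replicates 1 and 2 of the mutants correlated negatively (r = −0.21 over 4361 ORFs). A link between replicates of the sets, such as shared wt cultures, was not tested. The numbers were taken as names only, and crossed numbers gave 2 and 482. Single arrays with a random block gave 2 and 744, with a dye term 2 and 591. These 2 fits treat dye-swapped arrays of the same RNA as nearly independent (correlation within replicates −0.09, and 0.13 with a dye term). Of the output genes, 9 differed with the random block, with or without a dye term, and with either replicate block, 5 on Cy5 arrays, 1 after centring, and 8 and 5 without *ptc1 ptc6* replicates 1 and 2, against 0. Values on 4 of 4 arrays gave 5 ORFs, Cy5 arrays alone 41, and leaving out a replicate 0 to 3 cascade genes and 0 to 155 ORFs. Without *ptc1 ptc6* replicate 1, 3 cascade genes passed, and without *ptc6* replicate 1 only *KDX1* did (adjusted p = 0.0398).

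In *ptc1 ptc6* cells 649 ORFs were called, against 1349 with the random block, 1198 with a dye term, 415 on Cy3 arrays and 136 to 849 without a replicate. Median-centring gave 303 higher and 264 lower in place of 259 and 390. The upstream calls, 1 higher and 1 lower, went to 0 on Cy3 arrays and without either *ptc1 ptc6* replicate, and 2 were lower with the random block, fitted alone or without either *ptc6* replicate. Of the other MAP kinase modules, 1 gene was higher with the random block, with or without a dye term, and 1 was lower with it, fitted alone or without either *ptc6* replicate, against 0. Of the output genes, 7 to 11 were higher, and 1 was lower on Cy5 arrays. In *ptc6* cells 0 ORFs were called, against 8, 7, 10 when fitted alone, 2 on Cy3 arrays, 1 on Cy5 arrays and 0 to 10 without a replicate, with no cascade gene among them. Past 2-fold were 94 ORFs in *ptc1 ptc6* cells (61 with 4 of 4 arrays, 96 to 169 without a replicate) and 3 in *ptc6* cells (*PTC6*, *TIS11* and *FIT3*, named after their values were seen; 7 to 32 without a replicate).

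Changes of sign were limited to means that did not pass the test. In *ptc1 ptc6* cells *PKC1* was −0.026 on Cy5 arrays and −0.0345 to 0.17 without a replicate, and *MKK2* was 0.054 after centring, 0.0075 on Cy5 arrays and −0.0155 to 0.0075 without a replicate. In *ptc6* cells *PKC1* was 0.047 on Cy3 arrays, *MKK1* −0.11 on Cy3 arrays and −0.0555 to 0.16 without a replicate, *SLT2* −0.55 to 0.42, *RLM1* 0.034 with the random block, 0.023 with a dye term and −0.48 to 0.27, and *MSG5* −0.0745 to 0.22. The difference of *MSG5* was −0.061 to 0.23. The cause was not tested.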

Other observations

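Of 20 chromosomal neighbours of the cascade genes, 16 were tested in *ptc1 ptc6* cells, of which 2 rose and 2 fell, where 5.64% of all ORFs were called higher and 8.49% lower. YPL088W and *RPS6A*, next to *RLM1*, were among these 4. Beside *SLT2*, *YHI9* had a log2 ratio of 0.34 and did not pass the limma test (adjusted p = 0.137). Beside *KDX1*, *ELF1*, which codes for a transcription elongation factor, had −0.05 (adjusted p = 0.781). Beside *PTP2*, *RET1*, for a subunit of RNA polymerase III, had −0.07, and *NPT1*, for an enzyme that salvages nicotinic acid, had −0.06 in *ptc1 ptc6* cells. Beside *BCK1*, which had no value itself, *KHA1*, for a cation transporter, rose by 0.46 (adjusted p = 0.0382 by limma) in *ptc1 ptc6* cells. Beside *MSG5*, *COX5A*, for a subunit of cytochrome c oxidase, fell by 0.49 (adjusted p = 0.0368 by limma). Beside *SDP1*, *HOS4*, for a subunit of a histone deacetylase complex, had 0.86 on 1 array and was not tested.

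Upstream genes with a single array in *ptc1 ptc6* cells were *BAG7*, which codes for a GTPase-activating protein of Rho1, with a value of 1.54, and *ROM1*, for an exchange factor of Rho1, with 0.73. Neither was tested. On the *ptc6* arrays of replicate 2, *BAG7* had −0.223 and −0.964 and *ROM1* had −0.431 and −0.615.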
